A study of Paralichthys olivaceus with 6 samples.

Results

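Digestive and cell-surface peptidases were followed in gonads of double haploid (DH) Japanese flounder (*Paralichthys olivaceus*) females. These peptidases were 6 of the 52474 unigenes, which are contigs assembled from the reads of all fish and merged between libraries. They were selected by symbol (*cpa4*, *ela2*, *enpep*, or a name beginning with *ctrb*) from the unigenes that the study had called different between fertile and sterile gonads. Of the 6, 5 carried such a symbol and 1, *zgc:136461* (Contig24221), was taken by its identifier and is matched to mouse *Ctrb1*. Because the members were chosen on the contrast of fertile against sterile fish, that contrast is given here for them as a description. Calls of the fits on it are counted, but nothing is read from them. The comparison that the report turns on, between 1 sterile library and the other sterile libraries, was named in the choice of the members as well and is also a description.

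Gonads of 3 fertile and 3 sterile females were sequenced, each library being taken as 1 fish, and all fish were 5 years old and descended from a single wild female by mitogynogenesis, which duplicates 1 set of maternal chromosomes. The labels give stage V for the fertile and stage III for the sterile gonads, and the effects of fertility and of ovarian stage cannot be told apart. The methods describe gonads dissected from each female, but both methods and labels speak of pooled RNA when the libraries are made. Libraries F1, F2 and F3 are fertile and S1 is sterile by the sample codes, whereas the libraries called S4 and S5 carry numbers that no sample has, were taken as sterile from their letter, and share an ending of the column name that no other library has. F1, F2, F3 and S1 share the other ending. Total counts were between 25024469 and 35719683 per library, levels are counts divided by that total and scaled as CPM, and 3 counts correspond to 0.0840 to 0.120 CPM. Intervals below are exact 95% intervals that cover counting error only, not the spread between fish. As a limited check of the tissue, *fshr* (Contig4746), the follicle stimulating hormone receptor of ovarian somatic cells, was read in each library. It had 112, 182 and 266 counts in F1, F2 and F3 and 88, 67 and 98 counts in S1, S4 and S5. *fshr* was itself on the study's list of differential unigenes. Not all of the 13 ovary unigenes kept this much in the sterile libraries. *CYP11A1* (c15635_g1_i2_1925_7450) had 70, 138 and 50 counts in F1, F2 and F3 and 5, 4 and 1 in S1, S4 and S5.

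Chymotrypsins, elastases and carboxypeptidases are made as inactive precursors by acinar cells of the exocrine pancreas and are activated in the gut lumen. In most teleosts, the exocrine pancreas is not a compact organ but is spread along the gut, its mesentery, the spleen or the liver. Glutamyl aminopeptidase, the product of *enpep*, is instead anchored in the cell membrane, is abundant on the brush border of gut and kidney in mammals, and cleaves acidic residues from the ends of peptides such as angiotensin.

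*cpa4* (Contig28520), matched to mouse *Cpa1*, a pancreatic carboxypeptidase that removes amino acids from the end of a peptide chain, had 19, 3 and 0 counts in F1, F2 and F3 (0.736, 0.103 and 0 CPM). In S1, S4 and S5 it had 37, 103 and 261 counts (1.48, 2.88 and 7.71 CPM). Each sterile library lay above each fertile library, and the levels spread widely inside both groups, with a fertile mean of 0.280 ± 0.398 CPM and a sterile mean of 4.02 ± 3.27 CPM (SD, 3 libraries each). Library S1 was 5.61-fold above the pooled fertile libraries (interval 3.22 to 9.98), the pooled S4 and S5 were 3.54-fold above S1 (2.52 to 5.11), and S5 was 2.67-fold above S4 (2.12 to 3.39). *cpa4* was thus graded over the sterile libraries rather than split between S1 and the others.

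*zgc:136461* (Contig24221), the unigene matched to chymotrypsinogen B (mouse *Ctrb1*), the precursor of a protease that cuts after aromatic residues, had 3, 0 and 0 counts in F1, F2 and F3. It had 2 counts in S1, 141 in S4 and 83 in S5 (0.0799, 3.95 and 2.45 CPM). S1 therefore lay within the fertile range and close to 0, and S4 and S5 stood apart from the other 4 libraries. The pooled S4 and S5 were 40.3-fold above S1, an estimate that rests on 2 counts in S1 and has an interval of 11 to 335. In contrast to *cpa4*, S5 was below S4, at 0.621 times its level (0.468 to 0.820).

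The symbol *ela2* is carried by unigenes with different mouse matches, and they differed in their pattern. Contig19244, matched to *Cela2a*, an elastase that cuts elastin and other proteins after mid-sized hydrophobic residues, had 10, 4 and 12 counts in F1, F2 and F3 (0.387, 0.138 and 0.420 CPM). It had 7, 105 and 67 counts in S1, S4 and S5 (0.280, 2.94 and 1.98 CPM). As for the chymotrypsinogen unigene, S1 lay within the fertile range, S4 and S5 were well above it at 8.84 times its level (4.20 to 22.3), and S5 was below S4 at 0.673 times its level (0.488 to 0.924). Contig10079, matched to *Ctrc*, a chymotrypsin that in humans takes part in the activation and breakdown of trypsinogen, had 17, 11 and 15 counts in the fertile libraries (0.659, 0.379 and 0.524 CPM). In S1, S4 and S5 it had 28, 54 and 58 counts (1.12, 1.51 and 1.71 CPM). Its spread inside each group was small relative to the mean, with a fertile mean of 0.521 ± 0.140 CPM and a sterile mean of 1.45 ± 0.302 CPM (SD, 3 libraries each). The fertile and sterile libraries did not overlap, and the difference between S1 and the pooled S4 and S5 was not detectable at this depth (1.44-fold, 0.944 to 2.26).

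*enpep* was represented by Contig23982 and Contig23983. Contig23982 had 20, 0 and 5 counts in F1, F2 and F3 and 11, 85 and 121 counts in S1, S4 and S5 (0.440, 2.38 and 3.57 CPM in the sterile libraries). Contig23983 had 21, 2 and 4 counts in the fertile libraries against 20, 125 and 168 counts in the sterile ones (0.799, 3.50 and 4.96 CPM in S1, S4 and S5). For both, S1 lay within the fertile range, since F1 was higher than or about level with it. Among the fertile libraries F1 stood apart, holding 41 counts over both unigenes against 2 in F2 and 9 in F3. The pooled S4 and S5 were 6.74-fold (3.69 to 13.7) and 5.27-fold (3.35 to 8.76) above S1, and S5 was above S4 by 1.5-fold (1.13 to 2.01) and 1.42-fold (1.12 to 1.80). The fertile means were 0.317 ± 0.406 CPM for Contig23982 and 0.341 ± 0.411 CPM for Contig23983, and the sterile means were 2.13 ± 1.58 CPM and 3.09 ± 2.11 CPM (SD, 3 libraries each).

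**Figure D1:**
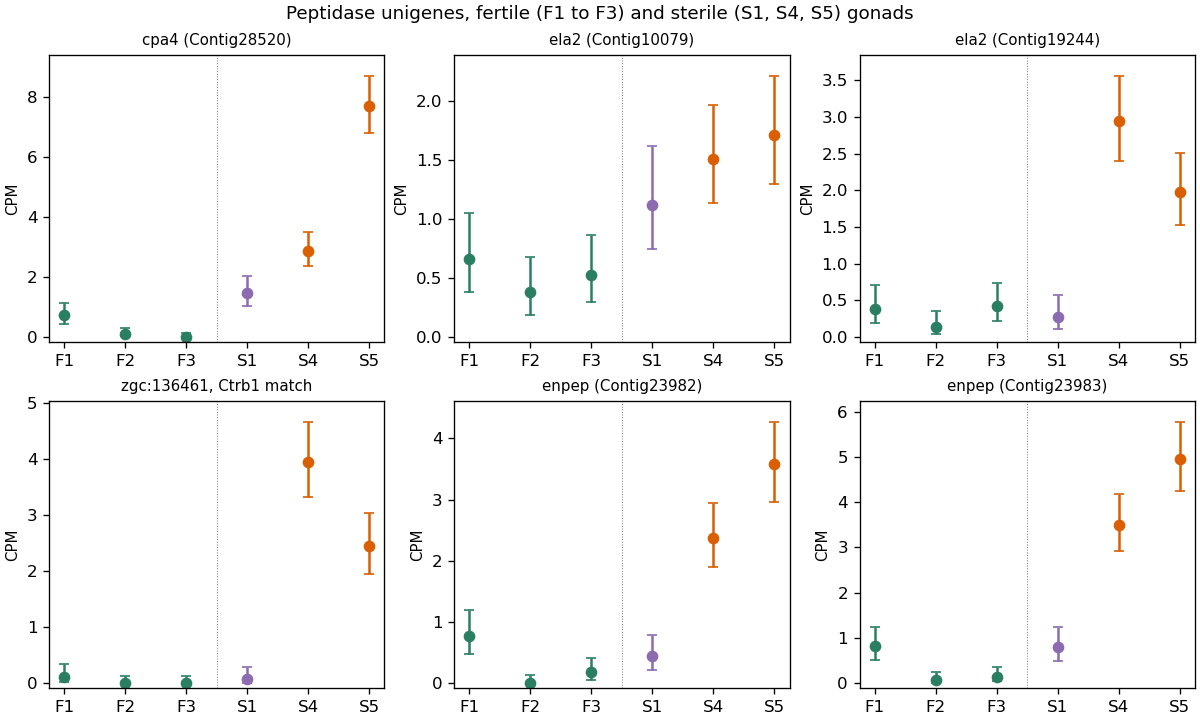
CPM of the 6 peptidase unigenes in fertile (F1, F2, F3, green) and sterile (S1, purple, and S4 and S5, orange) gonads, 1 point per library with its exact 95% counting interval, each panel on its own axis from 0. S1 lies within the fertile range for 4 unigenes and between the fertile libraries and S4 and S5 for *cpa4* and *ela2* (Contig10079).

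Every sterile library was above every fertile library for 2 of the 6 unigenes, *cpa4* and *ela2* (Contig10079). The same held for 1917 of the 35787 unigenes that passed the low-count filter (5.36%). For the other 4, S1 was within the fertile range, for *zgc:136461* and both *enpep* unigenes only through F1. Relative to the pooled fertile libraries, S1 was at 0.898 (0.329 to 2.12) for *ela2* (Contig19244) and 2.22 (0.186 to 19.4) for *zgc:136461*. It was at 1.47 (0.652 to 3.09) for *enpep* (Contig23982) and 2.47 (1.31 to 4.57) for *enpep* (Contig23983). For the last of these, the interval lay above 1, but it does not cover the spread between fish. S1 (0.799 CPM) was still below F1 (0.813 CPM) there, so no difference between S1 and the fertile group is read from it. The log2 fold changes, sterile over fertile, from edgeR's quasi-likelihood fit were 4.05 (standard error 0.92) for *cpa4*, 1.61 (0.30) for *ela2* (Contig10079), 2.63 (0.75) for *ela2* (Contig19244), 2.96 (0.92) for *enpep* (Contig23982) and 3.38 (0.82) for *enpep* (Contig23983). *zgc:136461* did not pass the filter on low counts, and without the filter its log2 fold change was 5.92 (standard error 1.29). Of the 5 tested, none reached an adjusted p under 0.05 with a fold change above 2 in edgeR, all 5 had an unadjusted p under 0.05, and DESeq2 called 1, *ela2* (Contig10079). Over all tested unigenes, 0.137% were called by edgeR in either direction and 0.0559% as higher in sterile gonads. An unadjusted p under 0.05 in edgeR was reached by 5551 of the 35787 tested, and DESeq2 called 322 of all 52474 unigenes. Nothing is read from these counts, since the members were selected on this contrast. Without F1, the fertile library with the most *cpa4* and *enpep* counts, these log2 fold changes were 6.31 for *cpa4*, 4.72 for *enpep* (Contig23982) and 4.99 for *enpep* (Contig23983), and *zgc:136461* was left with 0 fertile counts. Without S1, both *ela2* (Contig19244) and *zgc:136461* were called. The sterile libraries of that fit were only S4 and S5, and the step to these was named in the choice of the members, so these calls test nothing. With S1 as the only sterile library, an alternative chosen after the data were seen, *ela2* (Contig19244) was at -0.12 on the log2 scale and the other 4 tested were between 0.56 and 2.48.

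In both S4 and S5, 4 of the 6 unigenes were at least 4-fold above S1, with 3 counts as the floor of S1. These were *zgc:136461*, *ela2* (Contig19244) and both *enpep* unigenes. Of 48931 unigenes with at least 10 counts over the libraries, 56 did so (0.114%), and 50 were at least 4-fold lower in both. Of the 56, 14 carried a symbol, which only unigenes of the study's list of differential unigenes do here. The step was a named part of the choice of the members, so the count of 4 describes them and tests nothing. *cpa4* was past 4-fold in S5 but not in S4. At 8-fold, 13 unigenes remained, among them *zgc:136461*, whereas 5 were lower by as much. Summed over the 4 pancreatic unigenes, the level was 1.90, 0.620 and 0.944 CPM in F1, F2 and F3, 2.96 CPM in S1, 11.3 CPM in S4 and 13.9 CPM in S5. S4 and S5 were thus 3.82-fold and 4.69-fold above S1. The summed *enpep* level was 1.59, 0.0689 and 0.315 CPM in F1, F2 and F3 and 1.24, 5.88 and 8.54 CPM in S1, S4 and S5. In bulk gonad RNA, more cells of a type and more RNA per cell cannot be told apart, and the ending of the column names and the fish themselves cannot be told apart in S4 and S5.

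The other pancreatic proteases with a symbol in the list of the study were examined next, to see which of the patterns they share. They were 6 unigenes matched to trypsinogens, chymotrypsinogen and an elastase, and the study had chosen them on the same fish. Contig21111 (*zgc:112160*), the other unigene matched to chymotrypsinogen B, was at 0 counts in F1, F2, F3 and S1 and had 134 in S4 and 100 in S5, so that its pooled level there was 28.1 times the floor of 3 counts in S1, with a lower limit of 22.6-fold over S1 by the exact interval. *zgc:66382* (c20290_g1_i3_960_23410), matched to a mouse trypsin, had 0, 1 and 0 counts in the fertile libraries and 0, 183 and 125 in S1, S4 and S5, which was 36.9 times the floor in S1, with a lower limit of 29.9-fold. Another trypsin match, *si:ch73-103b2.3* (Contig28342), had 4, 2 and 2 counts in the fertile libraries and 4, 98 and 79 in the sterile libraries, a step of 15.9-fold (6.11 to 59.1). Like the chymotrypsinogen member, these 3 were at or near 0 in the fertile libraries and S1 and were found in S4 and S5.

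The trypsin match *PRSS1* (Contig22498) had 0, 1 and 0 counts in the fertile libraries against 2, 41 and 10 in the sterile ones, and stood apart mainly in S4. *xm_003200191.1* (c9630_g1_i2_504_21812), matched to trypsinogen 7, had 4, 1 and 1 counts in the fertile libraries against 3, 13 and 11 in the sterile ones, and its step of 2.88-fold (0.874 to 14.9) was not detectable at this depth. *zgc:92041* (Contig28547), matched to the elastase *Cela1*, had 32, 31 and 75 counts in the fertile libraries against 57, 135 and 218 in the sterile ones. It was graded, with a step of 2.23-fold (1.68 to 3.0) and S5 at 1.70 times the level of S4 (1.37 to 2.13), as in *cpa4*. Summed over the list, the levels were 1.55, 1.24 and 2.73 CPM in F1, F2 and F3, 2.64 CPM in S1, 16.9 CPM in S4 and 16 CPM in S5. Only 1 of the 6, *zgc:92041*, passed the low-count filter. It was not called by edgeR between fertile and sterile gonads, although its unadjusted p was under 0.05, and DESeq2 called 2 of the 6. Over all unigenes, 5551 of the 35787 tested had an unadjusted p under 0.05 in edgeR, and DESeq2 called 322 of 52474. The list was chosen on this contrast, and nothing is read from these calls.

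**Figure D2:**
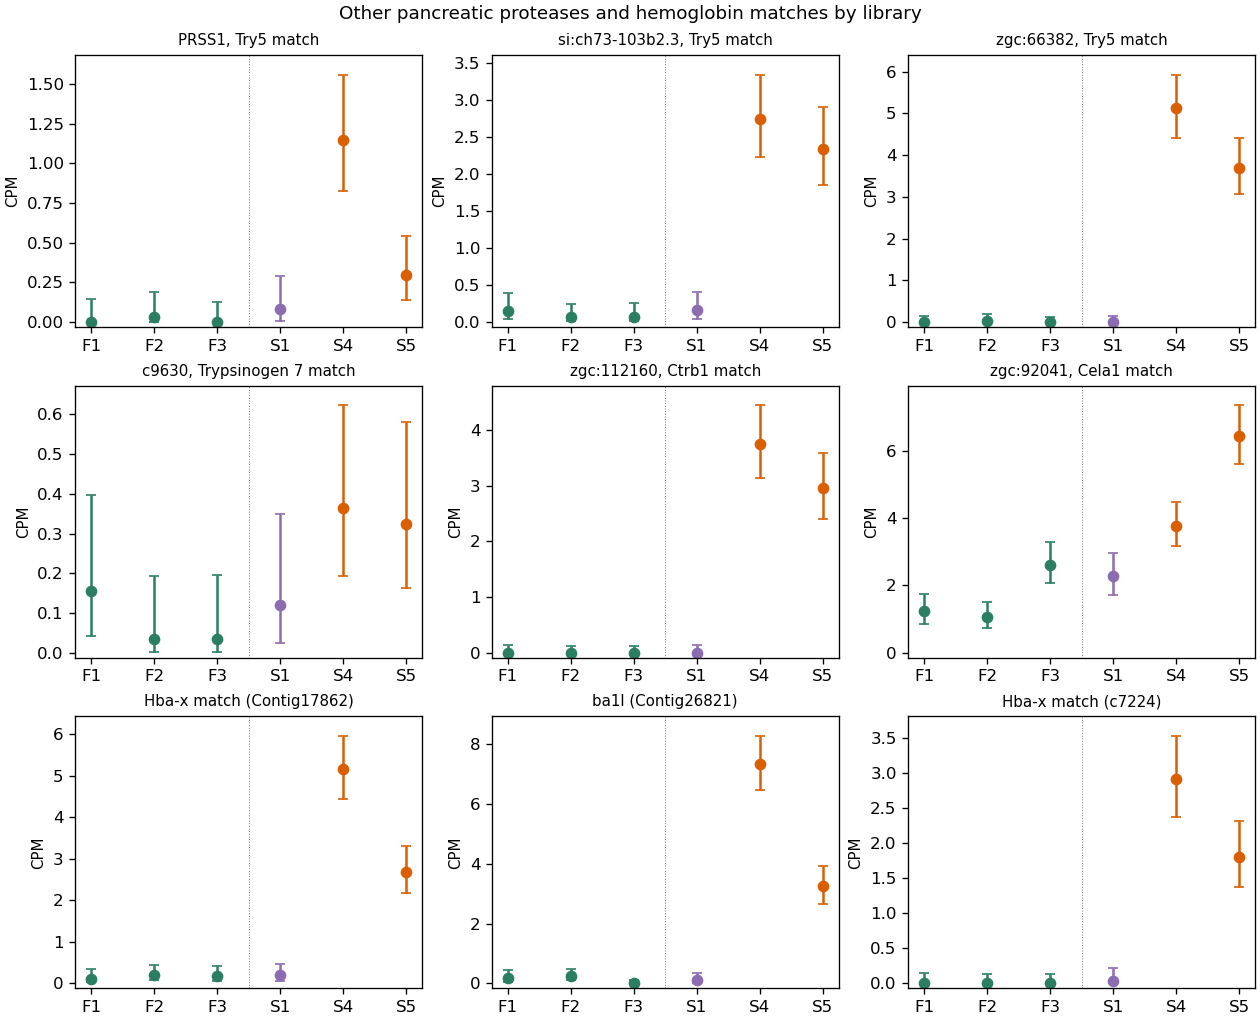
CPM of 6 other pancreatic proteases (upper rows) and 3 hemoglobin matches (lower row) in fertile (F1, F2, F3) and sterile (S1, S4, S5) gonads, 1 point per library with its exact 95% counting interval, each panel on its own axis. Most are near 0 in the first 4 libraries and above 1 CPM in S4 and S5, while *zgc:92041* is present in all 6.

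Markers of other cell types were set beside the peptidases, each list being made of unigenes that the study had chosen on these fish. The 3 hemoglobin unigenes with a symbol in the study's list, markers of erythrocytes, shared the step. Hemoglobin unigenes outside that list, if any, carry no symbol here and were not examined. *ba1l* (Contig26821), a beta globin, had 5, 7 and 0 counts in the fertile libraries and 3, 262 and 110 in S1, S4 and S5. The alpha globin matches had 3, 6 and 5 counts against 5, 184 and 91 (Contig17862), and 0, 0 and 0 counts against 1, 104 and 61 (c7224_g2_i1_562_17413). Their summed level was between 0.175 and 0.448 CPM in the fertile libraries and was 0.360 CPM in S1, 15.4 CPM in S4 and 7.74 CPM in S5. All 3 were past 4-fold in both libraries, and they were low in S1 and in the fertile gonads. The 3 did not pass the low-count filter. DESeq2 called 1 of them between fertile and sterile gonads, and 322 of all 52474 unigenes. Their part in the peptidase step was not tested.

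Of 9 unigenes for liver and gut epithelium, 1 was past 4-fold in both libraries. This was *apoc2* (Contig18042), an apolipoprotein that activates lipoprotein lipase, with 12, 1 and 4 counts in F1, F2 and F3 and 29, 173 and 206 in S1, S4 and S5. *slc6a14* (Contig22348), an amino acid transporter of epithelia, had 69, 1 and 15 counts in the fertile libraries against 48, 137 and 268 in the sterile ones, so that F1 and S1 overlapped as they did for *enpep*. *apoeb* (Contig23913), an apolipoprotein also made by macrophages, carried most of the sum of the list, which was 81.9 to 227 CPM in the fertile libraries, 604 CPM in S1, 1062 CPM in S4 and 1782 CPM in S5. *cpn1* (Contig5778), a plasma carboxypeptidase made in liver, lay the other way, with a fertile mean of 13 ± 5.92 CPM and a sterile mean of 4.28 ± 0.911 CPM (SD, 3 libraries each). *slc6a18* (c11241_g1_i1_417_11109), a transporter of neutral amino acids that was named after its values were seen, had 14, 3 and 19 counts in the fertile libraries and 1, 1 and 5 in S1, S4 and S5, and its groups overlapped in F2 and S5. With counts in S1 below 3 set to 3, the median step of the list from S1 to the pooled S4 and S5 was 2.34-fold, against 6.0-fold for the 6 peptidases, 11-fold for the other pancreatic proteases, 19.8-fold for the hemoglobins and 0.927-fold for all unigenes with at least 10 counts. The part of liver or gut epithelium in the peptidase levels was not tested.

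The remaining lists did not have a step of this size. None of the 6 other cell-surface peptidases, 10 leukocyte, 6 muscle or 13 ovary unigenes was 4-fold above S1 in both S4 and S5, and their median steps were 1.25-fold, 1.11-fold, 0.816-fold and 0.480-fold. The floor of 3 counts in S1 lowers the ovary median, since 4 of the 13 ovary unigenes had 0 counts in S1. The unigene at that median, *Cyp17a1* (c9173_g1_i1_385_1623), had 0 counts in S1 and 4 in the pooled S4 and S5. The size of the ovary median is therefore not read as a drop. Aminopeptidase N (*LOC555478*, Contig18471), which like *enpep* lies on the brush border, had a fertile mean of 4.27 ± 1.12 CPM and a sterile mean of 11.7 ± 3.77 CPM (SD, 3 libraries each). The unigene with the symbol *anpepa* (c7858_g2_i1_224_9989), whose mouse match is *Trhde* and which was named after its values were seen, lay the other way, with 3, 2 and 6 counts in the fertile libraries and 0 in each of S1, S4 and S5. Angiotensin-converting enzyme (*ace*, Contig18310) had 25, 19 and 19 counts in the fertile libraries against 32, 69 and 64 in the sterile ones. Leukocyte markers, among them *itgb2* and *spi1b*, summed to 5.61 to 9.40 CPM in the fertile libraries and to 19.1, 14.8 and 26.5 CPM in S1, S4 and S5, where S1 lay between S4 and S5. Muscle markers summed to 1.34 to 3.29 CPM in the fertile libraries and to 6.59, 4.14 and 6.09 CPM in S1, S4 and S5. The ovary list summed to 21.8, 40.2 and 28.9 CPM in the fertile libraries and to 12.1, 7.19 and 12.2 CPM in S1, S4 and S5.

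**Figure D3:**
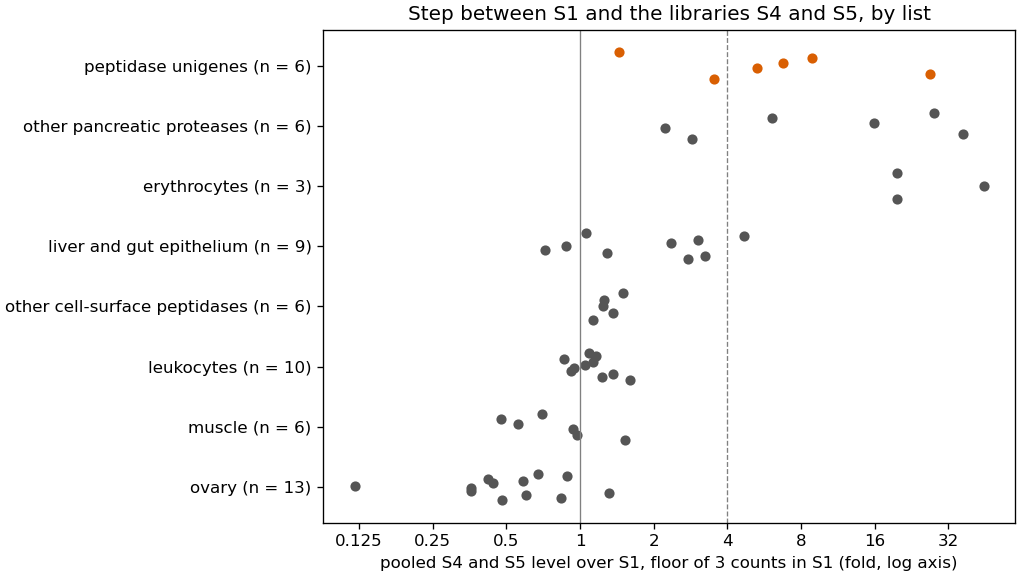
Fold of the pooled S4 and S5 over S1 for each unigene of 8 lists, with 3 counts as the floor of S1, on a log axis. The solid line marks 1-fold and the dashed line 4-fold, and 1 cell-surface peptidase and 1 ovary unigene with no count in the 3 sterile libraries are not drawn. Hemoglobins, pancreatic proteases and peptidases reach the highest folds, and leukocyte, muscle and ovary unigenes lie around or below 1. Unigenes with fewer than 3 counts in S1, among them several of the ovary list, are drawn lower than their counts because of the floor.

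Between fertile and sterile gonads, edgeR called no tested unigene of the cell-surface peptidase (4 tested), liver and gut (5), leukocyte (8) and muscle (4) lists. All of these had an unadjusted p under 0.05 in edgeR, as did 5551 of all 35787 tested unigenes. DESeq2, counted over every unigene of these lists, called 3 of 6, 3 of 9, 5 of 10 and 1 of 6, against 322 of all 52474. Of 10 tested ovary unigenes, 2 were called by edgeR as higher in fertile gonads, against 29 of all tested unigenes. The median log2 fold change, sterile over fertile, was 2.96 over the 5 tested peptidases, 2.28 for liver and gut epithelium, 1.44 for cell-surface peptidases, 1.37 for leukocytes, 1.36 for muscle and -1.71 for ovary, against 0.0099 over all 35787 tested unigenes. As all lists were selected on this contrast, these counts and medians are descriptions.

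The levels in S5 relative to S4 differed among the pancreatic proteases, some being higher in S4 and others in S5. *zgc:136461*, *ela2* (Contig19244), *PRSS1* and *zgc:66382* were lower in S5, at 0.621, 0.673, 0.257 (0.115 to 0.522) and 0.721 (0.570 to 0.910) times the level of S4. The 3 hemoglobins were lower in S5 as well, at 0.443 to 0.619 times. *cpa4*, *zgc:92041* and both *enpep* unigenes were higher in S5. For *ela2* (Contig10079), *si:ch73-103b2.3*, *zgc:112160* and *xm_003200191.1* the interval included 1. A higher level in S5 was not particular to the peptidases. It was seen for *itgb2* (1.91, 1.62 to 2.27), *apoeb* (1.68, 1.66 to 1.70) and *fshr* (1.54, 1.12 to 2.14), while for *ace* (0.979, 0.686 to 1.40) the interval included 1.

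**Figure D4:**
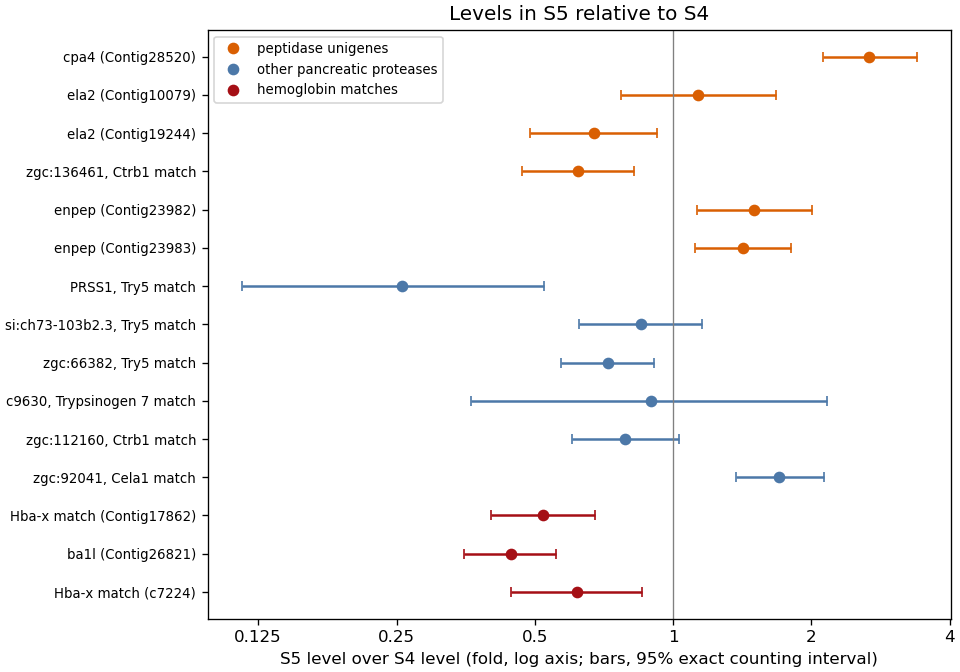
Level in S5 divided by the level in S4 for the 6 peptidase unigenes (orange), 6 other pancreatic proteases (blue) and 3 hemoglobin matches (red), on a log axis with exact 95% counting intervals. *cpa4*, *zgc:92041* and both *enpep* unigenes lie above 1, and the *zgc:136461*, *ela2* (Contig19244), 2 trypsin and all hemoglobin points lie below 1 with intervals that do not reach it.

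The make-up of the pancreatic counts was compared between libraries, to see whether their enzymes stood in 1 set of proportions. Of the 403 counts of the 4 pancreatic unigenes in S4, *cpa4* took 25.6% (21.4 to 30.1) and *zgc:136461* 35.0% (30.3 to 39.9). In S5, with 469 counts, *cpa4* took 55.7% (51.0 to 60.2) and *zgc:136461* 17.7% (14.3 to 21.5). In S1, with 74 counts, *cpa4* took 37 (38.1% to 61.9%) and *zgc:136461* 2, or 2.70% (0.329 to 9.42). The proportions thus differed between S4, S5 and S1 beyond counting error. The ratio of *cpa4* to *zgc:136461* counts was 0.731 in S4 (0.561 to 0.948), 3.14 in S5 (2.45 to 4.08) and 18.5 in S1 (4.77 to 158). By contrast, *ela2* (Contig19244) and *zgc:136461* kept a similar ratio in S4 and S5, at 0.745 (0.573 to 0.966) and 0.807 (0.576 to 1.13). In S1 that ratio was 3.50 (0.666 to 34.5), on 7 and 2 counts. For the *enpep* unigenes, the ratio of Contig23982 to Contig23983 was 0.680 (0.510 to 0.903) in S4, 0.720 (0.565 to 0.915) in S5 and 0.550 on 11 and 20 counts in S1. Both *enpep* unigenes have the same match, and a rule for reads shared by similar unigenes was not found in the methods or labels, so they may report on 1 gene. A single set of proportions over all 4 pancreatic unigenes did not describe S1, S4 and S5. Whether pancreas, gut or blood was carried along with any gonad was not tested.

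**Figure D5:**
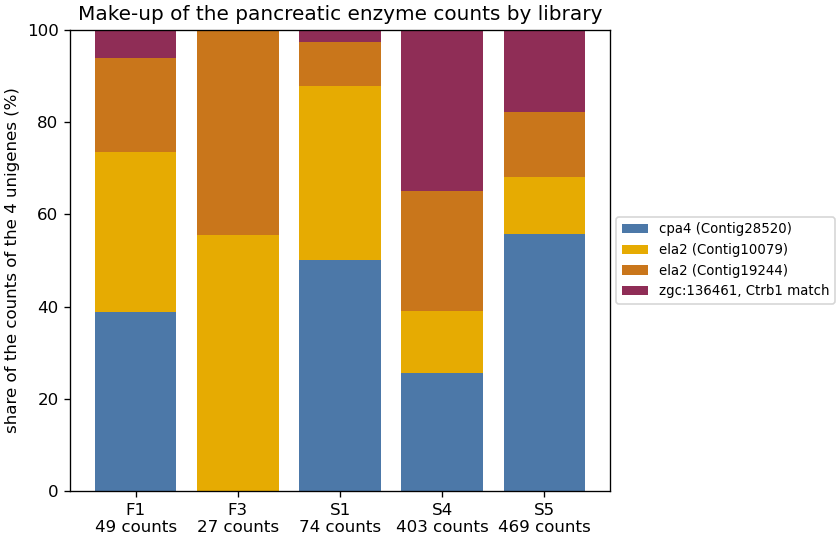
Share of the counts of the 4 pancreatic unigenes taken by each (stacked bars, percent) in the 5 libraries with at least 20 such counts, with the number of counts under each bar. F2 had 18 counts and is not drawn. *zgc:136461* takes 35.0% in S4, 17.7% in S5 and under 7% in F1, F3 and S1.

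The unigenes most like the peptidases were ranked by Pearson's r of log2(CPM + 1) over the 6 libraries, as a description in which all points share the same libraries. The 6 peptidase unigenes themselves were left out of both rankings, so the place of *enpep* relative to the pancreatic level was not ranked. Only 611 unigenes, all from the study's list of differential unigenes, carried a symbol. Every unigene named below was thus already chosen on the contrast of fertile against sterile gonads. The unigene with a symbol closest to the summed pancreatic level was *apoc2*, at r = 0.998, followed by *ace* at 0.984, *xm_686956.4* at 0.980, *rem2* and *rhoua*, both small GTPases, at 0.975 and 0.974, and *zgc:91968* at 0.974. The chemokine receptor unigene *cxcr3.2*, *LOC568954*, *zgc:123285* and *xm_684085.3* followed at 0.972 to 0.970. Of 48925 unigenes, 153 reached 0.95 (0.313%), 24 of them with a symbol. Among the other pancreatic proteases, *xm_003200191.1*, with 33 counts over all libraries, was at 0.970 and *si:ch73-103b2.3* at 0.952. *zgc:112160* was at 0.933, *zgc:66382* at 0.927, *zgc:92041* at 0.861 and *PRSS1* at 0.771, and the hemoglobins were at 0.893 to 0.923. Closest to the summed *enpep* level were *rem2* at 0.992, *LOC561851* at 0.980, *stim2b*, a calcium sensor of the endoplasmic reticulum, at 0.979, *xm_003200191.1* at 0.978 and *xm_686956.4* at 0.978. *rem2* had 10, 0 and 4 counts in F1, F2 and F3 and 9, 28 and 33 in S1, S4 and S5, which is the order of the libraries seen for *enpep* with F1 about level with S1.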

How the data were processed

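RNA-seq reads of each gonad library were assembled by the authors with Trinity and merged into unigenes with CAP3, and symbols were given by tBlastx matches to zebrafish, mouse and human transcripts. Mapping to the unigenes was done by the authors with BWA, whose version in their notes to the repository is 0.7.8-r455, and the deposited values are raw counts per unigene without normalization. For the counting step, Picard stands in the methods and HTSeq in those notes. Neither source says how strand, or reads with several matching unigenes, were treated. The authors' columns of fold changes and p-values, in a list from the supplement, were not used. That list holds 1225 unigenes, and only its identifiers and symbols were taken.

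The members and the 8 lists were chosen with earlier results of these data known. For S4 and S5, the letter of the column name was the only ground used for calling them sterile. No column was left unused, and no pair of libraries was a duplicate. CPM was computed on the total count. The groups were fitted in R 4.3.3 with edgeR 4.0.16 (TMM, filterByExpr, quasi-likelihood test, Benjamini-Hochberg adjustment), and DESeq2 1.42.0 was an alternative. The fit was run on simulated counts of unigenes that passed the low-count filter, with the same fold in all libraries of a group. That setting differs from a step inside the sterile group and from unigenes below the filter, so it does not bear on these. Ratios and shares have exact binomial intervals from scipy 1.17.1. For the step rule and the medians over lists, counts in S1 below 3 were set to a floor of 3 counts in that library, while the ratios given with an interval use the counts as deposited. Genes named by plan were every member, every other pancreatic protease, at most 4 of each other list and the unigenes most alike. Beyond that plan, *slc6a18*, *anpepa*, *COX1*, *COX2* and *rplp0* were named after their values were seen. Whether the counts of 1 fish would vary between repeated dissections cannot be seen from 1 library per fish. None of the unigene identifiers was found in the reference gene table (0), so no sequence or position is given.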

Additional observations from a re-analysis of the deposited data

How the results depend on the processing

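No paired analysis was possible by replicate number, because the columns of S4 and S5 carry numbers that no sterile sample has. The groups thus share only 1 replicate number, and that number does not mark F1 and S1 as a pair. The fertile and sterile gonads came from different females, and the methods describe no pairing between them. The number of unigenes called between fertile and sterile gonads was 49, and it was 79 without the low-count filter, 322 with DESeq2 and 34 to 97 with each library left out in turn (97 without F1, 72 without F3, 89 without S5). Of the peptidases, DESeq2 called 1 (*ela2*, Contig10079), and 0 to 2 were called with each library left out, the 2 being *ela2* (Contig19244) and *zgc:136461* without S1. Over the changes of filter, scaling and tool and with each library left out, the log2 fold changes, sterile over fertile, kept their sign in every fit that gave a value, with ranges of 3.11 to 6.31 for *cpa4*, 1.43 to 1.80 for *ela2* (Contig10079), 2.05 to 3.10 for *ela2* (Contig19244), 2.34 to 4.72 and 2.83 to 4.99 for *enpep* (Contig23982, Contig23983) and 5.35 to 9.14 for *zgc:136461*. The range for *zgc:136461* covers 6 fits, against 10 for each other member. In the remaining fits, among them those without S4 and without S5, it did not pass the low-count filter. The upper ends for *cpa4*, both *enpep* unigenes and *zgc:136461* are the values without F1, and that of *zgc:136461* then depends on the prior count of the fit, since its fertile counts are 0. With S1 as the only sterile library, chosen after the data were seen and with the lone library assumed to vary like the fertile ones, *ela2* (Contig19244) reversed to -0.12. By construction that fit leaves out S4 and S5. The number of peptidases past the step was 4 at 2-fold and 1 at 8-fold, and 5 without S4 and 4 without S5. The summed pancreatic step of 4.25-fold was 3.82-fold to 4.69-fold with S5 or S4 left out, 4.92-fold without *cpa4*, 5.96-fold without *ela2* (Contig10079), 3.78-fold without *ela2* (Contig19244) and 3.26-fold without *zgc:136461*. Depth limits the fertile values, where 3 counts or fewer stand behind several levels.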

Other observations

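Of the 14 unigenes with a symbol that were at least 4-fold above S1 in both S4 and S5, 3 belong to none of the lists and were named after their values were seen. *COX1* (Contig23079), a mitochondrially encoded subunit of cytochrome c oxidase, was at 0 counts in F1, F2, F3 and S1 and had 67 in S4 and 44 in S5. *COX2* (Contig17159), another subunit, had 1, 0, 0 and 0 counts in F1, F2, F3 and S1 and 51 and 29 in S4 and S5. *rplp0* (c9263_g1_i1_213_18030), a protein of the large ribosomal subunit, was at 0 counts in the same 4 libraries and had 19 and 17 in S4 and S5. Products of these genes are used by nearly all cells, whereas these particular unigenes had counts almost only in S4 and S5, as the chymotrypsinogen and trypsin unigenes did. Whether these unigenes, and the trypsin and chymotrypsinogen unigenes with the same pattern, come from the flounder or from another organism was not tested.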
